A study of Populus ussuriensis with 12 samples.

Results

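Phenylalanine ammonia-lyase (PAL), cinnamate 4-hydroxylase (C4H) and 4-coumarate:CoA ligase (4CL) are the enzymes at the entry to phenylpropanoid metabolism. The genes described here are a fixed list of 9 *Populus trichocarpa* gene IDs with their usual names, PAL1 to PAL5, C4H1, C4H2, 4CL3 and 4CL5, given by ID. Of the 9 genes, 8 had a row among the 39602 genes of the deposited tables, and all 8 were among the 25871 genes that passed the low-count filter. The ID listed as PAL5, Potri.010G224200.v3.0, had no row in any of the 12 tables used and was not analysed here. The tables carry no gene names, so the names are those of the list.

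PAL removes ammonia from phenylalanine to give cinnamic acid. C4H, a cytochrome P450 of the endoplasmic reticulum, hydroxylates cinnamic acid to p-coumaric acid, and 4CL joins that acid to coenzyme A. The p-coumaroyl-CoA so formed feeds both lignin and flavonoid synthesis. In roots, lignin stiffens xylem vessels and seals barrier layers, and flavonoids and other phenolics accumulate under many stresses. Poplars descend from an ancient genome duplication, and PAL1 with PAL3, PAL2 with PAL4, C4H1 with C4H2 and 4CL3 with 4CL5 are held to be paralogous pairs from it.

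Root RNA of the East Asian poplar *Populus ussuriensis* was sequenced from in vitro plants at an age of 21 days. The 4 groups were plants with the PuHSFA4a transgene, labelled PuHSFA4a-OE (OE), under excess Zn (OE Zn), wild type (WT) under excess Zn (WT Zn), OE under the control condition (OE control) and WT under the control condition (WT control), with 3 libraries each. HSFA4a belongs to the class A heat shock factors, proteins that switch on genes under stress. All plants were first kept for 1 week on half-strength MS medium with sucrose, and the conditions then lasted 2 weeks. The protocol text, the same for all samples, names 1.2 mM ZnSO4, taken here to mean the Zn groups alone. The labels give neither the promoter of the transgene nor the number of transgenic lines, and do not say whether the libraries are of different plants. The p-values therefore measure the spread between these libraries, which may be technical. Roots are a mixture of tissues, and fewer cells of a type cannot be told apart from less RNA per cell. No gene annotation was used, so the labelled tissue was not checked against marker genes.

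Total counts were 15594001 to 21206585 per library, and levels are given as CPM, in which each library is scaled to the same TMM-adjusted total. A count of 3, the floor set by counting error alone, equalled 0.141 to 0.192 CPM. The locus Potri.011G071700.v3.0, taken as HSFA4a from general knowledge of the annotation, stood at 239 to 267 CPM in OE Zn and at 32.5 to 33.1 CPM in WT Zn. Libraries are numbered here 1 to 3 within a group in the order of the sample titles, which carry no replicate numbers. On control medium this locus stood at 331 to 347 CPM in OE. In the libraries labelled WT control, numbers 3, 1 and 2, it stood at 37.1, 129 and 165 CPM. The last 2 libraries thus lay partway between the genotypes at this locus, and results that rest on WT control are given with and without them where the call changes. All members were well covered, with 760 to 9846 counts per library.

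The PAL genes lie on separate chromosomes, with coordinates as in the deposited tables, whose genome build is not given in the sources used here. PAL1 (Potri.006G126800.v3.0) occupies chromosome 6 from 10249101 to 10252655 on the minus strand, and PAL3 (Potri.016G091100.v3.0) chromosome 16 from 7482820 to 7486204 on the plus strand. PAL2 (Potri.008G038200.v3.0) occupies chromosome 8 from 2123928 to 2128275 on the minus strand. PAL4 (Potri.010G224100.v3.0) occupies chromosome 10 from 20815419 to 20825759 on the plus strand. That PAL4 entry spans 10341 bases, against 3385 to 4348 bases for the entries of the other PAL genes, while its deposited length of 2555 bases is similar to their 2500 to 2691 bases. The missing PAL5 ID would follow it directly, so whether the PAL4 counts hold reads of PAL5 was not tested. C4H1 (Potri.013G157900.v3.0) occupies chromosome 13 from 16037916 to 16042613, and C4H2 (Potri.019G130700.v3.0) chromosome 19 from 15645542 to 15649340, both on the minus strand. 4CL3 (Potri.001G036900.v3.0) occupies chromosome 1 from 2614753 to 2618030 on the minus strand, and 4CL5 (Potri.003G188500.v3.0) chromosome 3 from 19368564 to 19373070 on the plus strand. How reads that match both paralogues of a pair were counted is not given in the sources used here, so the split between such genes is uncertain.

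Excess Zn moved single genes at each of the 3 steps and left their paralogues without a call, except at PAL2 and PAL4, which rose together. Whether paralogues differed in their response was not tested. PAL3 and C4H1 fell, and PAL2, PAL4 and 4CL3 rose, in OE and in WT roots alike. PAL3 moved most, with a fold change on Zn of 0.499 in OE and 0.554 in WT. In each genotype 5 of the 8 genes passed the test, 3 higher and 2 lower (edgeR quasi-likelihood F-test, Benjamini-Hochberg adjusted p under 0.05 over all genes tested). Of all genes tested, 17.1% passed in OE (8.52% higher, 8.54% lower) and 29.9% in WT (15.3% higher, 14.5% lower). The Zn and control libraries did not overlap at 5 of the 8 genes in OE and at 4 of 8 in WT, against 36.8% and 44.5% of all genes tested. Over the 8 genes the median log2 fold change was 0.062 in OE and 0.099 in WT, beside 0.0023 and 0.0085 for all genes tested. The OE and WT comparisons share no library, but both come from 1 fit of all 12 libraries. Scaling and the estimate of variance are shared, so their p-values are not independent.

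**Figure D1:**
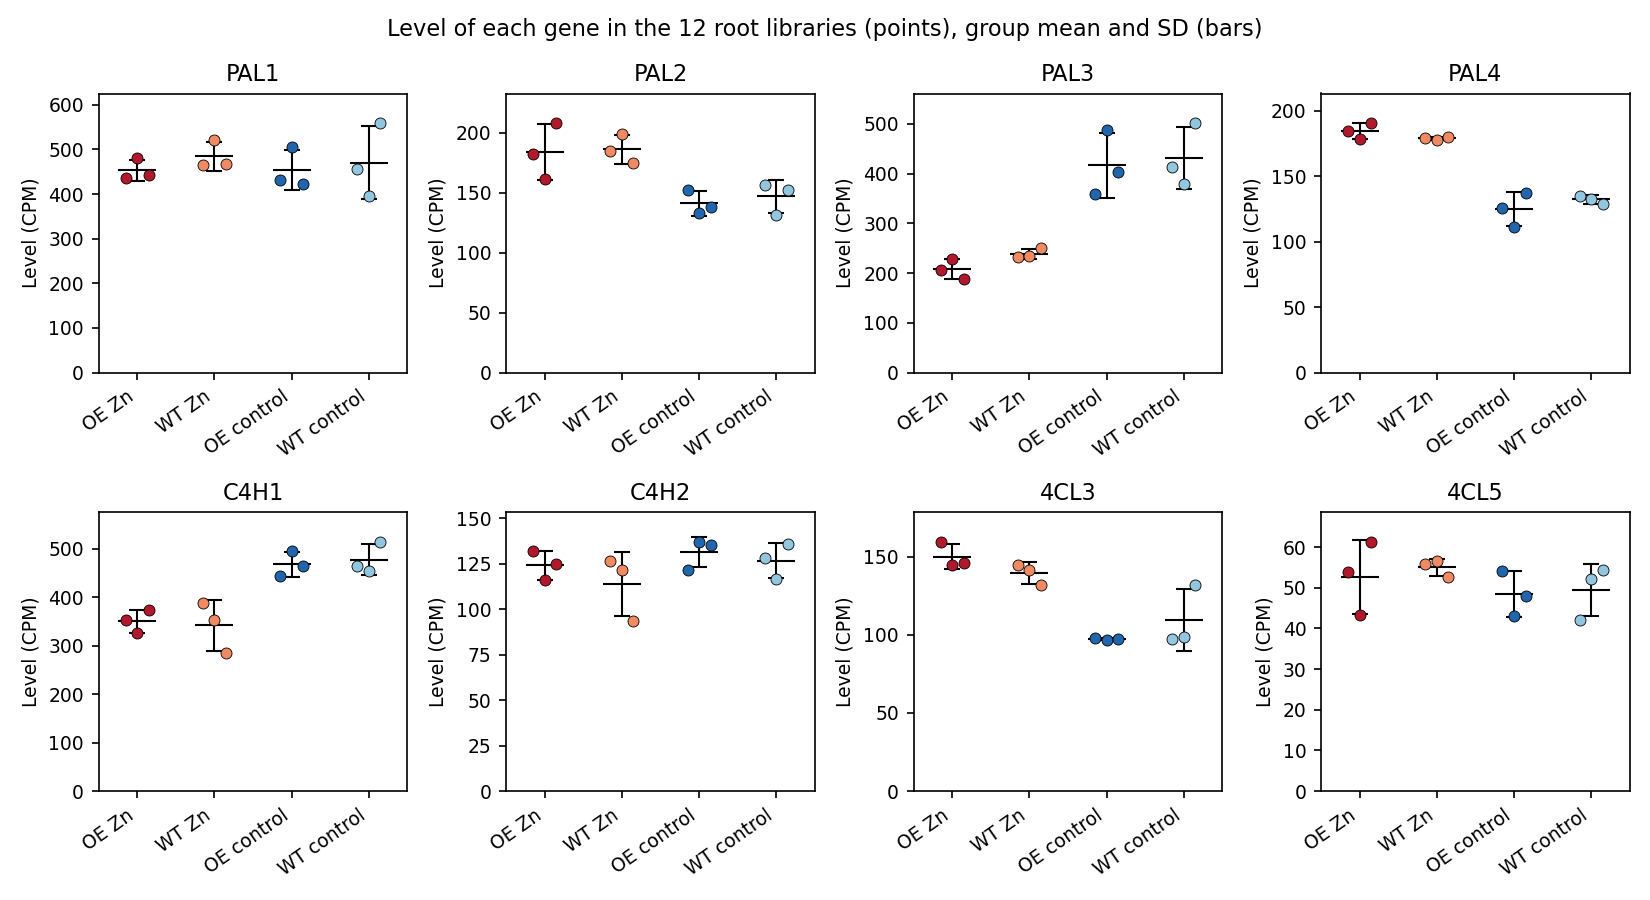
Level of each of the 8 genes in CPM (y axis, from 0) in the 12 root libraries, by group (x axis), with points for libraries and bars for the group mean and SD of 3 libraries. PAL3 and C4H1 lie lower in both Zn groups than in both control groups, PAL2 and PAL4 lie higher, and 1 WT control library of 4CL3, at 132 CPM, reaches the Zn libraries.

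PAL1, the PAL gene with the most reads, did not pass the test on Zn. It stood at 435, 481 and 443 CPM in OE Zn, against 432, 506 and 423 CPM in OE control. In WT it stood at 465, 522 and 467 CPM on Zn, against 456, 397 and 558 CPM on control medium. The groups overlapped in both genotypes, and WT control was the most scattered of them, with a coefficient of variation of 17.4%. The log2 fold change on Zn was -0.0020 in OE (SE 0.12, 95% interval -0.25 to 0.25, edgeR adjusted p = 0.993) and 0.044 in WT (SE 0.12, 95% interval -0.21 to 0.29, edgeR adjusted p = 0.807). These intervals leave room for changes up to 1.23-fold in WT.

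PAL3, its paralogue, fell on Zn. It stood at 207, 228 and 188 CPM in OE Zn, against 359, 488 and 403 CPM in OE control. The values in WT were 232, 235 and 249.8 CPM on Zn, against 413, 380.2 and 501 CPM on control medium. The highest Zn library of either genotype lay below the lowest control library of either genotype. On the log2 scale the change was -1.004 in OE (SE 0.12, edgeR adjusted p = 0.000485) and -0.85 in WT (SE 0.12, edgeR adjusted p = 0.000440).

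PAL2 rose on Zn. Its level was 182, 162 and 208 CPM in OE Zn, against 152, 133 and 138 CPM in OE control. WT roots had 184, 199 and 175 CPM on Zn, against 157, 131 and 153 CPM on control medium. The lowest Zn library exceeded the highest control library in each genotype, in OE by a small margin. PAL2 had a log2 fold change of 0.38 in OE (SE 0.100, edgeR adjusted p = 0.0213) and 0.34 in WT (SE 0.100, edgeR adjusted p = 0.0219). Both calls were close to the threshold. In OE the call was lost without OE control 2 (edgeR adjusted p = 0.0932), OE control 3 (0.0710), OE Zn 1 (0.0605) or OE Zn 3 (0.0695), and in WT without WT control 2 (0.0906), WT Zn 2 (0.0949) or WT control 1 and 2 together (0.182).

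PAL4 rose as well, and its libraries were the least scattered of the PAL genes on Zn. It had 184, 178 and 190.2 CPM in OE Zn, against 126, 111 and 137 CPM in OE control. In WT it had 179.1, 178 and 179.6 CPM on Zn, against 135, 133 and 129 CPM on control medium. The Zn and control libraries did not overlap, also across genotypes. PAL4 had a log2 fold change of 0.56 in OE (SE 0.072, edgeR adjusted p = 0.000583) and 0.44 in WT (SE 0.072, edgeR adjusted p = 0.000961).

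Of the 2 listed C4H genes, which encode the enzyme of the second step, C4H1 fell on Zn. C4H1 had 352, 326 and 374 CPM in OE Zn, against 444, 494 and 465 CPM in OE control. In WT it had 388, 353 and 284 CPM on Zn, against 463, 454 and 514 CPM on control medium. Zn and control libraries did not overlap in either genotype, and C4H1 fell by 0.42 on the log2 scale in OE (SE 0.11, edgeR adjusted p = 0.0182) and by 0.48 in WT (SE 0.11, edgeR adjusted p = 0.00475). Without WT control 3 and WT Zn 3 the WT value was -0.31 (edgeR adjusted p = 0.0396). The OE call was lost without OE control 2 (edgeR adjusted p = 0.0750), OE Zn 1 (0.0504) or OE Zn 2 (0.0712).

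C4H2 had a far lower level per length than C4H1 and did not pass on Zn. It stood at 132, 116 and 125 CPM in OE Zn, against 122, 137 and 135 CPM in OE control. WT libraries had 126, 122 and 93.4 CPM on Zn, against 128, 116 and 136 CPM on control medium. The groups overlapped in both genotypes. C4H2 had a log2 fold change of -0.081 in OE (95% interval -0.31 to 0.15, edgeR adjusted p = 0.646) and -0.15 in WT (95% interval -0.38 to 0.075, edgeR adjusted p = 0.295). WT Zn 3 was the lowest library of the series for both listed C4H genes.

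4CL3 rose on Zn in both genotypes, and in WT the size of the rise depended on the library WT control 3. It stood at 159, 145 and 146 CPM in OE Zn, against 97.8, 96.4 and 97.2 CPM in OE control. In WT it stood at 145, 142 and 131.8 CPM on Zn, against 97.0, 98.6 and 132.03 CPM on control medium. The OE groups were far apart, whereas the library WT control 3 lay just above WT Zn 3. The log2 fold change was 0.63 in OE (SE 0.10, edgeR adjusted p = 0.00201) and 0.35 in WT (SE 0.10, edgeR adjusted p = 0.0201). Without WT control 3 the WT value was 0.50 (edgeR adjusted p = 0.000696), and without WT control 3 and WT Zn 3 it was 0.55 (edgeR adjusted p = 0.000794). Without WT control 1 and 2 it was 0.076 (edgeR adjusted p = 0.594), and the control group then rested on WT control 3 alone, whose spread the fit takes from the remaining groups. The WT call was also lost when WT control 1 (edgeR adjusted p = 0.0841), WT control 2 (0.0808), WT Zn 1 (0.0600) or WT Zn 2 (0.0628) was left out and in a fit of the 2 WT groups alone (0.0680).

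4CL5 had the lowest level of the 8 genes and did not pass on Zn. It had 53.8, 43.2 and 61.3 CPM in OE Zn, against 54.3, 43.0 and 47.9 CPM in OE control. In WT it had 55.9, 56.6 and 52.7 CPM on Zn, against 42.1, 52.1 and 54.3 CPM on control medium. Zn and control libraries overlapped in both genotypes. The log2 fold change was 0.13 in OE (95% interval -0.16 to 0.41, edgeR adjusted p = 0.556) and 0.16 in WT (95% interval -0.13 to 0.44, edgeR adjusted p = 0.397), so a change of the size seen at 4CL3 in WT lies within both intervals.

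**Figure D2:**
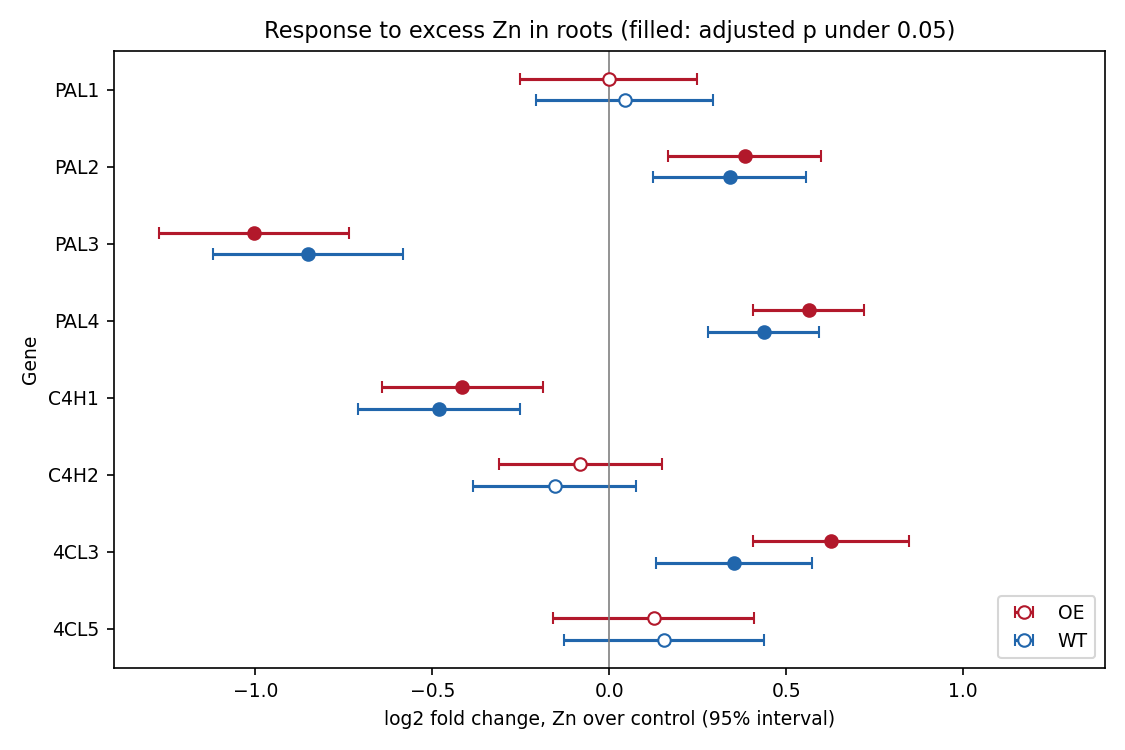
Log2 fold change of each gene on Zn over control medium (x axis) in OE and WT roots, with 95% intervals from the edgeR fit. Filled points passed an adjusted p of 0.05. PAL3 at -1.004 in OE and -0.85 in WT lies farthest from 0, and PAL1, C4H2 and 4CL5 have intervals that include 0.

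The ratio of the paralogues within a library did not overlap between Zn and control libraries in 3 of the 4 pairs, in either genotype. The share of other gene pairs without overlap was not computed. Among single genes tested, 36.8% in OE and 44.5% in WT had no overlap. The ratio of PAL3 to PAL1, as levels per length (CPM per kilobase of the deposited length), was 0.501, 0.499 and 0.447 in OE Zn, against 0.875, 1.02 and 1.001 in OE control. In WT it was 0.524, 0.475 and 0.562 on Zn, against 0.952, 1.01 and 0.944 on control medium. PAL3 was thus near the level of PAL1 in control roots and near 0.5 of it in roots on Zn. With the authors' FPKM the ratio averaged 0.435 in OE Zn and 0.868 in OE control, and 0.469 in WT Zn and 0.872 in WT control, so its level depends on the length used. It does not depend on how libraries are scaled to each other. The ratio of C4H2 to C4H1 averaged 0.319 ± 0.018 in OE Zn and 0.252 ± 0.0080 in OE control, and 0.299 ± 0.0091 in WT Zn and 0.239 ± 0.0088 in WT control (SD, n = 3 each). All Zn libraries of a genotype lay above all its control libraries. For 4CL5 over 4CL3 the ratio averaged 0.401 ± 0.070 in OE Zn and 0.567 ± 0.062 in OE control, and 0.450 ± 0.0090 in WT Zn and 0.521 ± 0.071 in WT control (SD, n = 3 each). Zn libraries lay below control libraries in each genotype, but in WT the gap between WT Zn 3 at 0.456 and WT control 3 at 0.468 was small. PAL4 over PAL2 averaged 1.06 ± 0.098 in OE Zn and 0.933 ± 0.10 in OE control, and 1.02 ± 0.072 in WT Zn and 0.953 ± 0.095 in WT control (SD, n = 3 each), with overlap in both genotypes. Single libraries moved some of these log2 differences on Zn by over 1.5 times. For 4CL5 over 4CL3 in WT the difference was -0.20, and -0.097 without WT control 2. For PAL4 over PAL2 it was 0.19 in OE, and 0.13 without OE Zn 2, and 0.094 in WT, with 0.046 to 0.17 when each WT library was left out in turn. No test was run on these ratios.

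**Figure D3:**
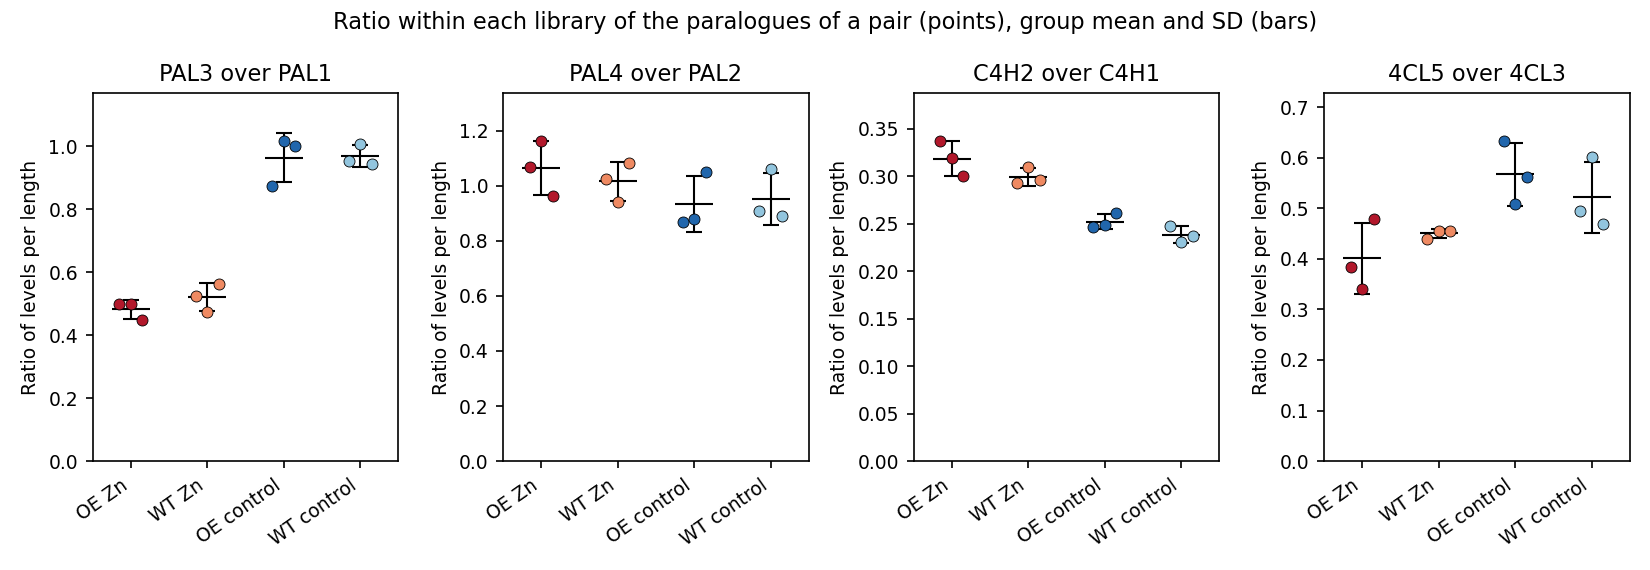
Ratio of the levels per length of the paralogues of each pair (y axis, from 0) within each library, by group (x axis), with points for libraries and bars for mean and SD of 3 libraries. The PAL3 to PAL1 ratio lies at 0.447 to 0.562 in Zn libraries and at 0.875 to 1.02 in control libraries, and the PAL4 to PAL2 ratio overlaps between media.

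The summed level of PAL1 to PAL4 differed less between media than the level of PAL3, which was only part of that sum. PAL2 and PAL4 were higher on Zn, and PAL1 did not pass the test. The sum over PAL1 to PAL4 was 396 ± 7.92 CPM per kilobase in OE Zn and 440.3 ± 35.2 in OE control, and 419 ± 15.01 in WT Zn and 458 ± 58.5 in WT control (SD, n = 3 each). OE Zn libraries lay below OE control libraries, and the WT groups overlapped. The log2 difference of the sum was -0.15 in OE, and -0.087 without OE control 2. In WT it was -0.12, with -0.024 without WT control 3 and -0.21 without WT control 2. PAL3 made up 21.0% ± 1.80 of the pool in OE Zn and 37.7% ± 2.96 in OE control, and 22.8% ± 1.31 in WT Zn and 37.7% ± 0.92 in WT control (SD, n = 3 each). PAL1, PAL2 and PAL4 each held a larger share on Zn, on average, in both genotypes. PAL5 is not in this pool, and whether the PAL4 counts hold its reads was not tested. PAL4 made up 18.2% ± 0.83 in OE Zn and 11.2% ± 1.87 in OE control, and 16.7% ± 0.68 in WT Zn and 11.4% ± 1.60 in WT control (SD, n = 3 each). PAL2 made up 17.3% ± 2.32 in OE Zn and 11.99% ± 1.71 in OE control, and 16.5% ± 0.67 in WT Zn and 11.99% ± 1.03 in WT control (SD, n = 3 each). PAL1 held 43.5% ± 1.51 in OE Zn and 39.1% ± 1.25 in OE control, and 44.0% ± 1.35 in WT Zn and 38.9% ± 1.76 in WT control (SD, n = 3 each), and was the largest component on average in every group. Shares sum to a fixed total, so a share can move without a change in the level of its gene.

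**Figure D4:**
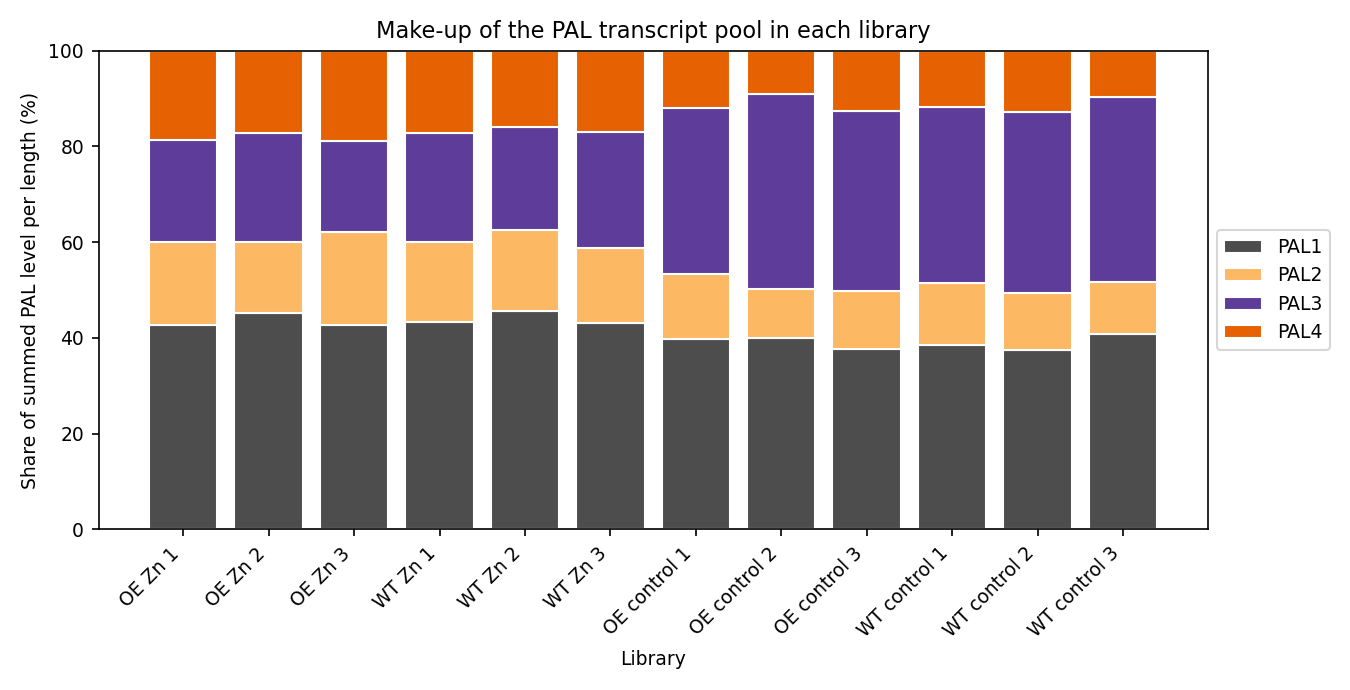
Share of each of PAL1 to PAL4 (stacked colours, in percent of their summed level per length, y axis) in each of the 12 libraries (x axis). The PAL3 band covers 19.05% to 24.2% in the 6 Zn libraries and 34.7% to 40.7% in the 6 control libraries, and the PAL2 and PAL4 bands are wider on Zn.

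The summed levels of the listed C4H genes and of the listed 4CL genes went in opposite directions. Other genes for these enzymes were not examined. C4H1 and C4H2 together stood at 206 ± 12.7 CPM per kilobase in OE Zn and 261 ± 14.3 in OE control, and at 198 ± 30.4 in WT Zn and 263 ± 17.8 in WT control (SD, n = 3 each). Zn libraries lay below control libraries in both genotypes. 4CL3 and 4CL5 together stood at 94.0 ± 6.44 CPM per kilobase in OE Zn and 68.1 ± 3.18 in OE control, with no overlap. In WT they stood at 90.5 ± 4.03 on Zn and 74.1 ± 11.3 on control medium (SD, n = 3 each), where WT control 3 at 86.7 lay above WT Zn 3 at 85.9. WT control 3 had the highest summed level of the WT control libraries for the listed genes of each of the 3 enzymes.

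In order of level per length, the genes fell into a high and a low set. C4H1, PAL1 and PAL3 were high on control medium, with 208 ± 11.3, 172 ± 17.2 and 167 ± 26.2 CPM per kilobase in OE and 212 ± 14.3, 179 ± 31.1 and 173 ± 25.0 in WT (SD, n = 3 each). Libraries of PAL1 and PAL3 overlapped, so their order is not resolved. Far below them, C4H2, PAL2, PAL4 and 4CL3 stood between 43.5 and 52.5 CPM per kilobase in OE control and between 48.9 and 54.6 in WT control. The libraries of these genes overlapped in WT control, whereas in OE control every 4CL3 library lay below every C4H2 and PAL2 library. With the authors' FPKM, which differ from CPM per kilobase by a factor that varies between genes, 4CL3 at 50.5 to 51.6 overlapped C4H2 at 50.2 to 56.0 and PAL2 at 49.7 to 57.5 in OE control, so that order is not resolved. 4CL5 was the lowest at 24.7 ± 2.87 CPM per kilobase in OE control and 25.2 ± 3.30 in WT control (SD, n = 3 each). On Zn, PAL3 at 83.1 ± 7.95 CPM per kilobase in OE and 95.6 ± 3.81 in WT came closer to PAL4, at 72.1 ± 2.34 in OE and 69.96 ± 0.41 in WT (SD, n = 3 each). PAL1 stood at 172 ± 9.19 CPM per kilobase in OE Zn and 184 ± 12.3 in WT Zn (SD, n = 3 each). Averaged over all libraries, the 8 genes lay above 82.5% to 98.5% of the genes tested.

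None of the 8 genes passed the same test between OE and WT roots. On Zn the edgeR test called 0 of the 8 genes, and 0% of all genes tested passed. No member had an unadjusted p under 0.05, against 7.13% of all genes. On control medium edgeR again called 0 of the 8 genes and 0% of all genes tested, and no member had an unadjusted p under 0.05, against 8.87% of all genes. DESeq2 and limma-voom called 0 of the 8 genes in either medium, while over all genes DESeq2 called 64 on Zn and 81 on control medium and limma-voom called 0 in both. The log2 fold changes of OE over WT lay between -0.20 and 0.13 on Zn and between -0.17 and 0.052 on control medium. Their 95% intervals allow folds of 0.723 to 1.28 on Zn and 0.763 to 1.22 on control medium. The range on control medium includes WT control 1 and 2, which lay partway between the genotypes at the HSFA4a locus. Without them the log2 fold change of 4CL3 was -0.44, beyond the lowest interval end of -0.39. Averaged over both media, the log2 fold changes were -0.13 to 0.089 (95% intervals from -0.31 to 0.25), again with 0 of the 8 genes called by edgeR, against 0.0232% of all genes tested. No member had an unadjusted p under 0.05 there, against 9.27% of all genes. For comparison, the log2 fold change of the HSFA4a locus was 2.97 on Zn (SE 0.41, edgeR adjusted p = 0.0575) and 1.62 on control medium (SE 0.38, edgeR adjusted p = 0.395). Averaged over both media it was 2.29 (SE 0.28, edgeR adjusted p = 0.0331), which passed.

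PAL3 had the largest difference between genotypes on Zn. Its values of 207, 228 and 188 CPM in OE Zn lay below all of the 232, 235 and 249.8 CPM in WT Zn, and 12.8% of all genes tested had groups that did not overlap in this comparison. The log2 fold change was -0.20 (SE 0.12, 95% interval -0.47 to 0.065, edgeR adjusted p = 0.738). On control medium PAL3 overlapped between genotypes, with a log2 fold change of -0.050. Without WT control 1 and 2 it was -0.26. 4CL3 had the largest difference on control medium, -0.17 (SE 0.10, edgeR adjusted p = 0.665), with OE at 96.4 to 97.8 CPM and WT at 97.0 to 132.03 CPM. That difference rested on WT control 3. It was -0.013 without that library (edgeR adjusted p = 0.990) and -0.44 without WT control 1 and 2 (edgeR adjusted p = 0.178).

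**Figure D5:**
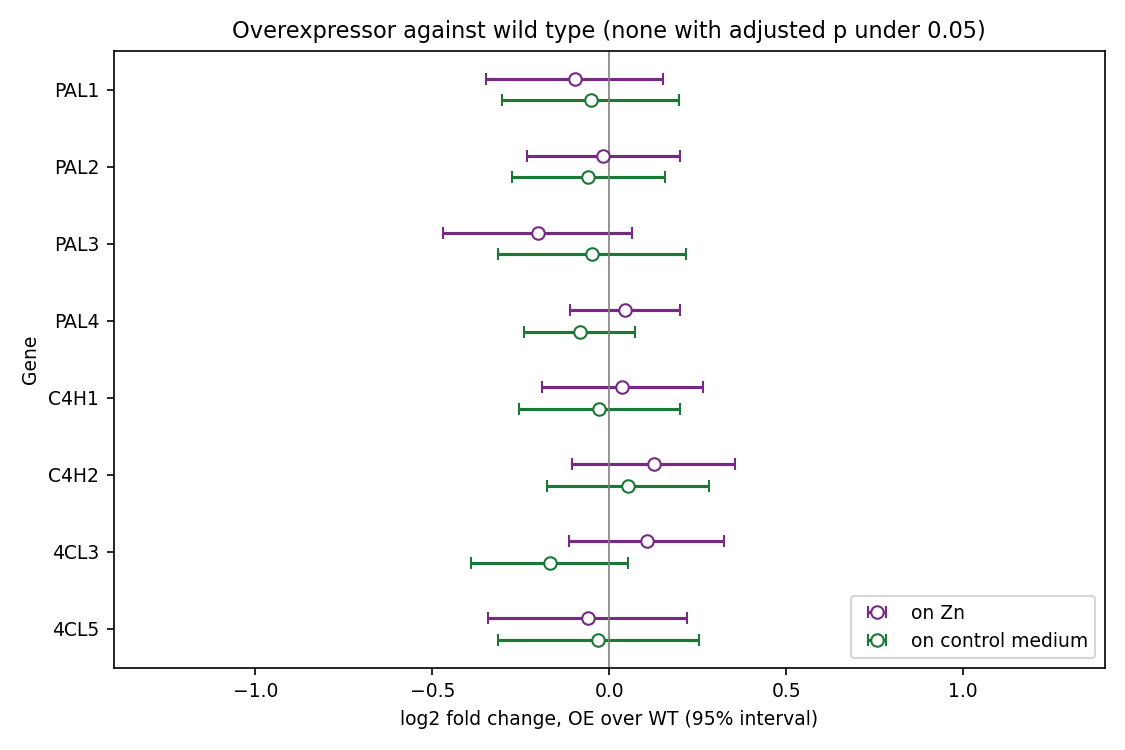
Log2 fold change of each gene in OE over WT (x axis) on Zn and on control medium, with 95% intervals from the edgeR fit, on the same x range as the plot of the Zn response. All points lie between -0.20 and 0.13, every interval includes 0, and no gene passed an adjusted p of 0.05.

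The genotype by Zn interaction asked whether OE and WT responded to Zn by different amounts. edgeR called 0 of the 8 genes and 0% of all genes tested, and no member had an unadjusted p under 0.05, against 6.29% of all genes. DESeq2 called 5 genes over all and limma-voom 0, none of them a member. The largest interaction was at 4CL3, where the rise was 0.27 larger in OE on the log2 scale (SE 0.14, edgeR quasi-likelihood adjusted p = 0.786). The other interactions lay between -0.15 and 0.13, and the 95% intervals of the 8 genes together ran from -0.53 to 0.59. They were narrowest at PAL4, from -0.093 to 0.35, and widest at 4CL5, from -0.43 to 0.37. The 4CL3 interaction rested on WT control 3. It was 0.12 without that library (edgeR adjusted p = 0.958), 0.075 without WT control 3 and WT Zn 3 (edgeR adjusted p = 0.964) and 0.55 without WT control 1 and 2 (edgeR adjusted p = 0.226).

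Neighbouring genes on the chromosome had medians near 0. Among the 20 nearest tested genes of each member, 10 on either side, the median log2 fold change on Zn lay between -0.12 and 0.074 in OE and between -0.058 and 0.13 in WT. Of all genes tested, 17.1% passed in OE and 29.9% in WT. Around PAL3, 2 of 20 neighbours passed in OE and 5 of 20 in WT. The median of the PAL3 neighbours was -0.010 in OE and 0.13 in WT, beside -1.004 and -0.85 for PAL3. For C4H1, 1 of 20 neighbours passed in OE and 5 of 20 in WT, with medians of -0.12 in OE and -0.044 in WT.

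Genes with the most similar profile were sought among the 18708 tested genes that averaged 5 CPM or more. Likeness was the root mean square difference, over the 12 libraries, between log2(CPM + 0.5) values centred on the mean of each gene. For PAL3 the closest were Potri.008G025800.v3.0 at 0.12, Potri.009G031800.v3.0 at 0.13 and Potri.015G060400.v3.0 at 0.13. Their own log2 fold changes on Zn were -0.76, -1.09 and -0.83 in OE and -0.84, -0.77 and -0.94 in WT. Values near those of PAL3 follow from the choice of these genes by likeness over the same 12 libraries. C4H1 was closest to Potri.015G060000.v3.0 at 0.062, PAL4 to Potri.009G118400.v3.0 at 0.077, PAL2 to Potri.013G061400.v3.0 at 0.083 and 4CL3 to Potri.016G103400.v3.0 at 0.071. Potri.016G028900.v3.0 was among the 3 closest genes of both PAL4 and 4CL3. Of the other members, PAL4 was the closest to 4CL3, at a distance of 0.14 and rank 57 of all genes compared. PAL2 and PAL4 were each other's closest member, at 0.13, but 206 genes lay closer to PAL2 and 252 lay closer to PAL4. PAL1 and PAL3 were not each other's closest member. The C4H genes were, at 0.18, but 1554 genes lay closer to C4H1 than C4H2 did.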

How the data were processed

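The authors deposited 1 table per library with a length, locus, strand, whole-number count, FPKM and a normalized value per gene. The submitters' processing notes name the aligner TopHat2 2.1.1 and the counter HTSeq 0.6.0. The deposited counts were treated as estimated counts, since they equal the value implied by the authors' normalized signal, within 0.02, for 64.5% to 65.7% of detected genes and lie 1 above it for 31.1% to 32.4%. For the members the difference was at most 1 count. The authors' FPKM served only as an alternative to CPM per kilobase.

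The test was that of edgeR 4.0.16 in R 4.3.3, with DESeq2 1.42.0 and limma 3.58.1 as alternatives. Genes passing filterByExpr were scaled by TMM, and 1 fit of 4 group means (8 residual degrees of freedom) gave robust quasi-likelihood F-tests for 6 contrasts. Each SE is the size of the log2 change over the root of its F value. The members were chosen with earlier results of these data known. Named genes were the members, the HSFA4a locus and, per member, up to 3 genes of the most similar profile. Lists of other pathway and marker genes by words in gene descriptions could not be filled without an annotation. Promoter and protein sequences were not used here.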

Additional observations from a re-analysis of the deposited data

How the results depend on the processing

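For the Zn responses, 5 members passed in each genotype with DESeq2, limma-voom, median-ratio or upper-quartile scaling, no filter and a filter of 1 CPM in 3 libraries. A fit of the compared groups alone gave 5 in OE and 4 in WT. With a minimum absolute log2 fold change of 1, 1 member passed in OE and 0 in WT, of 1373 and 2220 genes, since most of the changes are smaller. Without WT control 1 and 2, 3 members and 4866 genes passed in WT. Leaving out each library in turn gave 3 to 5 members in OE, lowest without OE control 2 or OE Zn 1, and 3 to 5 in WT, lowest without WT control 2 or WT Zn 2; over all genes it gave 2200 to 4765 calls in OE. The call of PAL3 in OE was kept under all these alternatives, but with the minimum fold change only narrowly, at -1.004 against a cut-off of 1. Those of PAL3 and C4H1 in WT, of PAL4 in both genotypes and of 4CL3 in OE were lost only with the minimum fold change. The PAL3 log2 fold change ran from -1.11 to -0.88 in OE and from -1.07 to -0.74 in WT.

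For OE against WT and the interaction, no member passed under any alternative. Calls over all genes on Zn were 64 with DESeq2, 10 without a filter, 4 in the fit of 2 groups, 1 without WT control 1 and 2 and 1 without WT control 3 and WT Zn 3. On control medium they were 81 with DESeq2, 11 without WT control 1 and 2 and 1 without WT control 3 and WT Zn 3. The interaction gave 5 with DESeq2 and 1 without WT control 3 and WT Zn 3. Averaged over media, 6 genes were called, against 185 with DESeq2 and 11 without WT control 1 and 2. Leaving out each library in turn gave 0 to 19 calls on Zn, 0 to 1 on control medium, 0 to 1 for the interaction and 4 to 60 averaged over media.

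Values that changed sign did not pass the test before or after. The Zn response of PAL1 in OE became 0.0015 with limma-voom, 0.020 with upper-quartile scaling and 0.00022 with the 1 CPM filter, and in WT it became -0.21 without WT control 1 and 2. C4H2 in WT became 0.021 without WT control 3 and WT Zn 3. PAL3 in OE against WT on control medium became 0.072 without WT control 3 and WT Zn 3. Leaving out each library in turn gave -0.051 to 0.080 for PAL1 on Zn in OE, -0.071 to 0.18 for PAL1 on Zn in WT and -0.18 to 0.068 for PAL3 between genotypes on control medium. Over the 8 members, 6 of 176 values of OE against WT on Zn, 14 of 176 on control medium, 16 of 168 for the interaction and 14 of 168 for the average over media changed sign under an alternative, and none of these passed. The cause was not tested.

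The Zn differences of the paralogue ratios and of the sums over listed genes moved by less than the spread between libraries with the authors' FPKM. So did those of the sums with other scaling. Leaving out 1 of the 3 libraries of a group can never move a difference by more than this spread. That check therefore says nothing about stability. Without 1 library the PAL sum ran from -0.19 to -0.087 in OE and from -0.21 to -0.024 in WT (log2). For 4CL5 over 4CL3 in WT the range was -0.28 to -0.097. Scaling moved the median of all genes to at most 0.031 (log2). No paired analysis was possible because the labels carry no replicate numbers. Counts read back from the normalized values were not tried, since that column is not the count times 1 factor for every gene.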
